A study of Danio rerio with 24 samples.

Results

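The genes described here were 47 named factors that build ribosomes, followed through 24 RNA-seq libraries of whole zebrafish embryos. A gene entered when the count table held a row of that name with at least 10 counts in 4 or more libraries. The table, which lists 37660 genes, had a row for 46 of the 47 names, and 45 of these passed and were tested among 27010 genes. All 45 had at least 10 counts in all 24 libraries, so the count minimum did not select members through the group in which they were high. Of the 2 genes left out, nol6 had a row with 0 or 1 count in each library, and no row was named nop14. Just inside the minimum were utp18, with 22 to 75 counts, and polr1b, with 40 to 82 counts. An unnamed locus described in the table as resembling NOL6 of Xenopus tropicalis had 253 to 745 counts. The row CABZ01079760.1 (ENSDARG00000098859), which a separate name table pairs with nop14, had 376 to 866 counts. Neither locus was counted as a member. The row paired with nop14 did not share the direction of most members in WT at 3 h, with a log2 fold change from DMSO of -0.11 (SE 0.11). It was at 0.01 (SE 0.11) in KO at 3 h, and at -0.10 (SE 0.11) in both genotypes at 24 h. In KO against WT it was above 0, like most members, at 0.15 (SE 0.11) in DMSO and at 24 h. At 3 h it was at 0.27 (SE 0.11, edgeR p 0.0202, adjusted p 0.304).

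Ribosomes are assembled in the nucleolus. RNA polymerase I transcribes the ribosomal RNA precursor, small nucleolar ribonucleoproteins modify it, and the small-subunit processome folds and cleaves it, after which the precursors of both subunits mature separately. Growing and dividing cells make many ribosomes, and the transcription factor Myc is known to raise transcription of many of these factors.

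Each library came from a pool of about 50 embryos at 3 days post fertilization (dpf), and messenger RNA was captured by its poly(A) tail. The 6 groups, with 4 libraries each, were wild-type (WT) and knockout (KO) embryos in DMSO (labelled 0 h and 0 µM), in ML233 at 0.5 µM for 3 h and in ML233 at 0.5 µM for 24 h. ML233 is known as an agonist of the apelin receptor, and the study's title presents it as an inhibitor of tyrosinase. The labels describe the KO in differing ways: sample titles name the apelin receptor, the growth protocol names mutants of aplnr(a/b) in the AB strain made with Cas9 and guide RNA duplexes, whose WT controls had the same grandparents, and the design text names apelin. KO is therefore used here as a label. Because DMSO carried 0 h, ML233 cannot be told apart from the hours between 0 h and collection. The study asked, as far as the labels state it, how embryos of each genotype respond to the compound. In RNA from whole embryos, fewer cells of a type and less RNA per cell cannot be told apart.

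Libraries held 28.95 to 43.35 M counts (SI prefix mega), and the 45 members took 0.144% to 0.207% of them. The receptor genes named in the growth protocol were present in every library. For aplnra there were 23.3 to 25.8 counts per M counts (CPM) in the 12 WT libraries and 13.3 to 21.3 CPM in the 12 KO libraries. For aplnrb there were 21.4 to 27.0 and 9.70 to 17.7 CPM. The ligand gene apln had 95.5 to 112 and 82.9 to 95.2 CPM. The ranges of the 3 genes did not overlap between genotypes. Within every group the libraries fell into 2 pairs. The pairs were defined from correlations of non-member genes, and no label names them. In WT they were replicates 1 and 2 against 3 and 4 in all groups. In KO they were 1 and 3 against 2 and 4 in DMSO and at 24 h, and 1 and 2 against 3 and 4 at 3 h. Whether the libraries of a pair came from independent pools was not shown, so p-values measure the spread between these libraries, which may in part be technical.

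Per kilobase of the length the table gives for a gene, member levels spanned a wide range. The highest mean level over the 24 libraries was that of ncl (nucleolin, an abundant nucleolar RNA-binding protein; chromosome 22, 36673312 to 36690751), at 126.8 CPM per kilobase. Next came fbl (fibrillarin, the methyltransferase of box C/D ribonucleoproteins; chromosome 16, 42177659 to 42186093) at 56.6, bysl (bystin, of small-subunit maturation) at 52.2 and nop56 (a box C/D scaffold; chromosome 21, 11958758 to 11970199) at 42.1 CPM per kilobase. The lowest were urb2 (a large-subunit factor; chromosome 13, 24231327 to 24263682) at 1.68, heatr1 (a processome scaffold that also aids RNA polymerase I; chromosome 12, 9619909 to 9700605) at 1.61 and polr1b (the second largest subunit of RNA polymerase I) at 0.496 CPM per kilobase. Coordinates are as the count table lists them, and the submitters' processing notes name the build GRCz11.

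As a summary, the module level of a library is the mean of the 45 members' log2 CPM. In replicates 1 to 4 it was 4.14, 4.15, 4.37 and 4.29 in WT DMSO, 4.37, 4.41, 4.60 and 4.59 in WT at 3 h, and 4.096, 4.18, 4.40 and 4.26 in WT at 24 h. In the same order it was 4.16, 4.53, 4.50 and 4.57 in KO DMSO, 4.53, 4.48, 4.74 and 4.89 in KO at 3 h, and 4.49, 4.86, 4.22 and 4.72 in KO at 24 h. In WT, 3 of the 4 libraries at 3 h were above every DMSO library and the fourth was level with the highest of them, whereas the 24 h libraries covered the DMSO range. In KO the groups overlapped, the lowest library of the DMSO group was close to the lowest WT libraries, and the 24 h group held both the second highest level and one of the lower levels of all 24 libraries. The second highest, replicate 2, had the lowest normalization factor (TMM) of all libraries, 0.833. Members took 0.187% of its counts, against 0.190% in replicate 1 of KO at 24 h, whose level was 4.49.

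**Figure D1:**
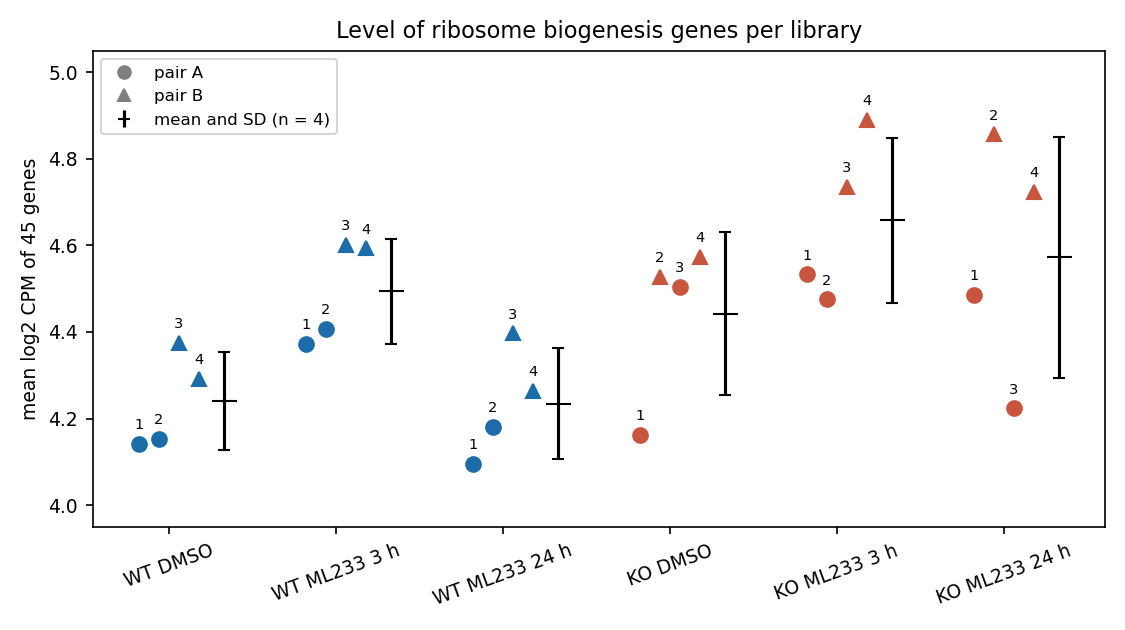
Module level (mean log2 CPM of the 45 members) in each library, by group, with the group mean and SD (n = 4) and with the data-derived pair of each library marked. WT libraries at 3 h have a mean of 4.49 against 4.24 in DMSO and 4.23 at 24 h, and KO libraries at 24 h spread from 4.22 to 4.86.

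The mean module level was 4.24 ± 0.11 in WT DMSO, 4.49 ± 0.12 in WT at 3 h and 4.23 ± 0.13 in WT at 24 h (SD, n = 4 each). It was 4.44 ± 0.19, 4.66 ± 0.19 and 4.57 ± 0.28 in the corresponding KO groups. In ascending order the groups were WT 24 h, WT DMSO, KO DMSO, WT 3 h, KO 24 h and KO 3 h, and every step between neighbours was smaller than the SD of either, except that of 0.20 from WT DMSO to KO DMSO. The pairs moved the level as well: in each WT group both libraries of replicates 3 and 4 were above both of replicates 1 and 2. Within pairs, the difference of WT at 3 h from WT DMSO was 0.24 in replicates 1 and 2 and 0.26 in replicates 3 and 4, beside 0.25 over all libraries. The same difference in KO was 0.17 and 0.26 within pairs, beside 0.22. For KO at 24 h it was 0.02 in the pair of replicates 1 and 3 and 0.24 in the pair of replicates 2 and 4, beside 0.13. No p is given for the module level, because the members were chosen with results of these data known.

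**Figure D2:**
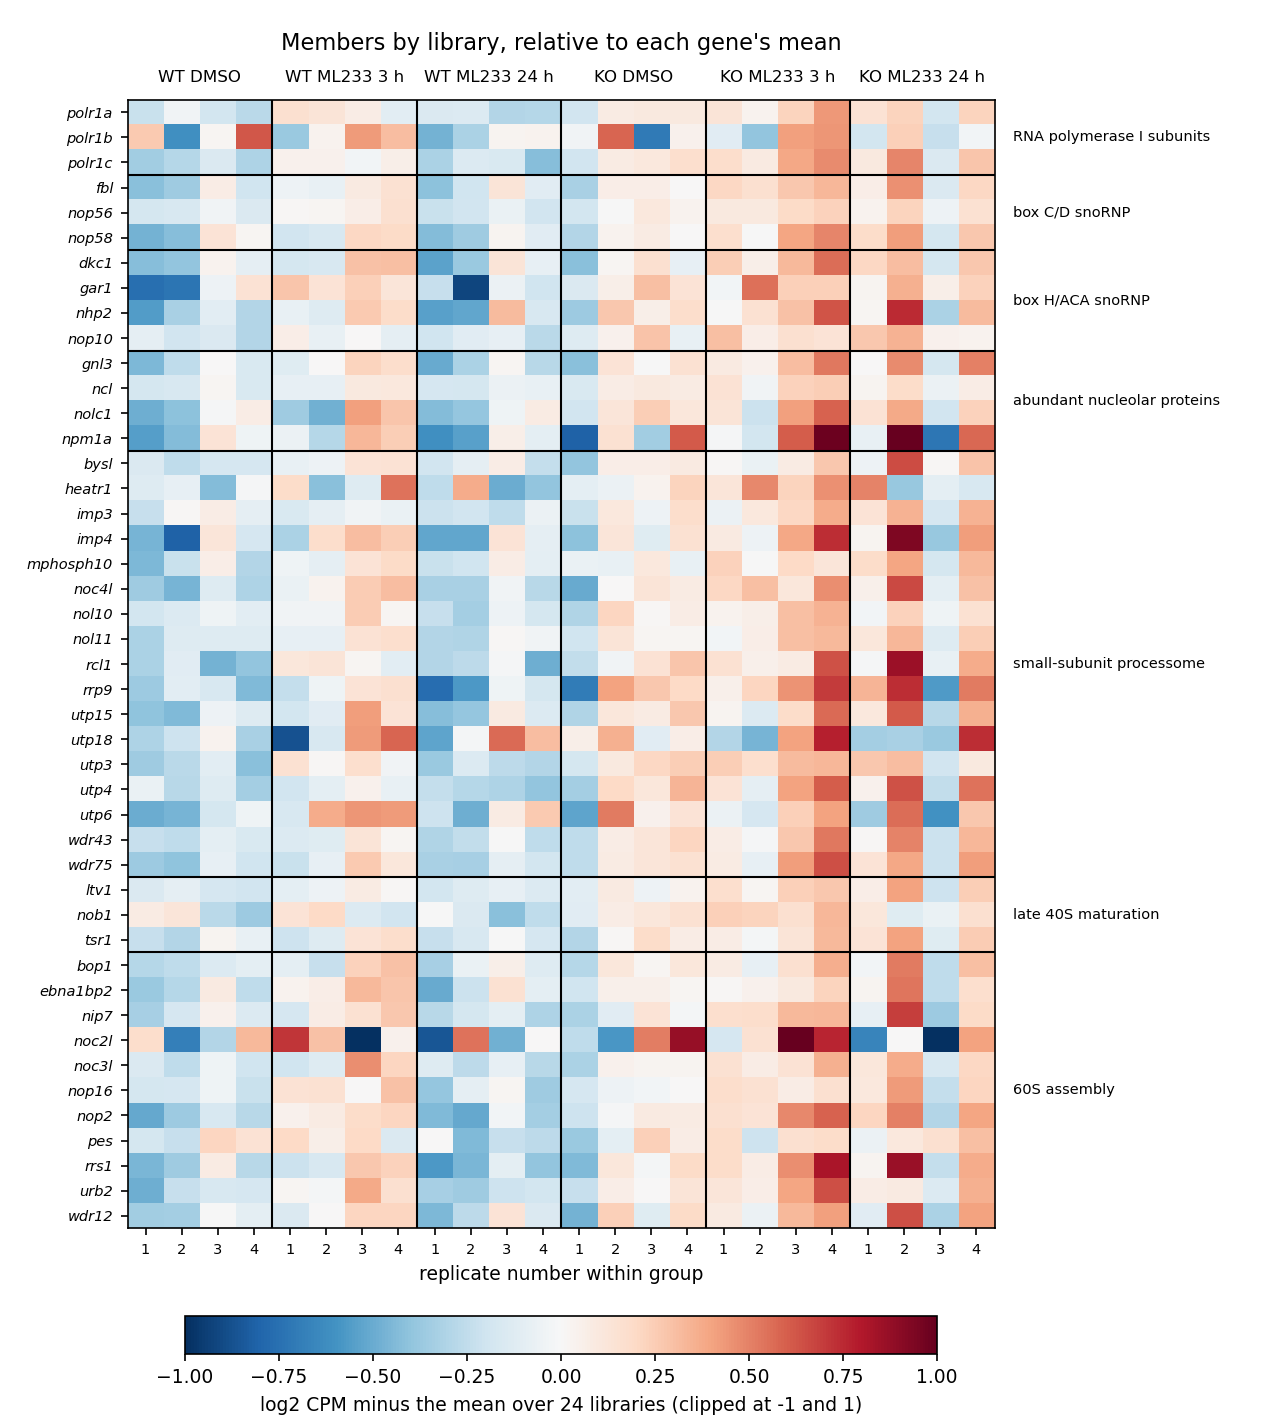
Log2 CPM of each member (rows, ordered by role) in each of the 24 libraries (columns, ordered by group and replicate), shown as the difference from that member's mean over all libraries. Most rows are above their mean in replicates 3 and 4 of WT at 3 h and in the KO libraries other than replicate 1 of DMSO and replicate 3 of 24 h, while heatr1, nob1, noc2l and polr1b follow other patterns.

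In WT embryos, members were on balance higher after 3 h of ML233 than in DMSO, without any of them being called. The log2 fold change was above 0 for 43 of 45 members, against 51% of all tested genes, and its median was 0.27, against 0.00 over all genes. The exceptions, named after their values were seen, were imp3 (a processome component) at -0.03 and polr1b at -0.01. With edgeR's quasi-likelihood test and Benjamini-Hochberg adjustment, 0 of 45 members had an adjusted p under 0.05 (0% of all tested genes), and the smallest adjusted p of a member rounded to 1. DESeq2's Wald test called 0 as well. At an unadjusted p under 0.05 there were 12 members, all higher, against 1.04% of all tested genes in that direction. The 12 became 5 without WT DMSO replicate 1, and 8 to 15 without any other library. The libraries of 12 members did not overlap between the groups, all higher, against 1.73% of all genes. These fits, which also give the SE and p of each member named below, held no term for the library pairs. Their SE and p-values therefore include the difference between pairs. An edgeR fit with the pair as a block also called 0 members (0.0037% of all genes). In it, 29 members had an unadjusted p under 0.05, all higher, against 4.11% of all genes.

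Same-numbered WT libraries deviated together across treatments, and differences by number can also be read. In every WT group, however, replicates 1 and 2 form a data-derived pair and replicates 3 and 4 the other. A match of libraries by number beyond these pairs was therefore not shown. The module level at 3 h was above that in DMSO by 0.23, 0.25, 0.23 and 0.30 in replicates 1 to 4. Of the 45 members, 35 were higher at 3 h in 4 of 4 numbered pairs, against 10.6% of all tested genes, and 0 were lower in 4 of 4, against 9.59%. From 3 h to 24 h, 35 members were lower in 4 of 4, against 7.33% of all genes. This second comparison shares the 3 h libraries with the first, so the counts are not independent of each other.

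By role, the RNA polymerase I subunits gave 2 of 3 members at an unadjusted p under 0.05 in WT at 3 h. For polr1a (the largest subunit; chromosome 14, 16151368 to 16212896), levels in replicates 1 to 4 were 28.0, 32.0, 28.8 and 27.0 CPM in WT DMSO and 36.5, 35.7, 34.4 and 30.3 CPM at 3 h. At 24 h they were 29.6, 29.7, 26.6 and 26.7 CPM. Replicates 1 to 3 at 3 h were above every DMSO and 24 h library, and replicate 4 was inside the DMSO range. The log2 fold change at 3 h was 0.24 (SE 0.10, edgeR p 0.0312, adjusted p 1). For polr1c (a subunit shared with RNA polymerase III; chromosome 13, 28690355 to 28694924) it was 0.30, and for polr1b, at 1.11 to 2.61 CPM in these WT groups, it was -0.01 with an SE of 0.28.

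Box C/D and box H/ACA ribonucleoproteins guide methylation and pseudouridylation of ribosomal RNA. Of the 3 box C/D members, nop56 had 123, 125, 135 and 126 CPM in WT DMSO, 140, 141, 146 and 155 CPM after 3 h, then 119, 122, 133 and 122 CPM after 24 h. All 3 h libraries of nop56 were above all DMSO libraries, by a log2 fold change of 0.19 (SE 0.08, edgeR p 0.0204, adjusted p 1). For fbl the values were 59.98, 62.7, 84.6 and 70.1 CPM in DMSO, against 77.5, 76.2, 85.4 and 89.4 CPM after 3 h, which overlapped. Of the 4 box H/ACA members, dkc1 (dyskerin, the pseudouridine synthase; chromosome 21, 43702010 to 43716471) had 36.3, 37.1, 49.8 and 45.7 CPM in DMSO, compared with 43.1, 43.6, 59.8 and 59.9 CPM after 3 h. For dkc1 the pairs differed by more than the treatments, and within each pair both 3 h libraries were above both DMSO libraries. The log2 fold change was 0.29, and its SE of 0.17 includes the difference between pairs. The fold change of gar1 (a core protein of the same particles), named after its values were seen, was 0.49 (SE 0.20, edgeR p 0.0225, adjusted p 1) at 2.72 to 6.22 CPM over the WT libraries.

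None of the 4 abundant nucleolar proteins reached an unadjusted p under 0.05 in WT at 3 h, although all 4 fold changes were above 0, with a median of 0.24. For ncl, libraries had 399, 404, 458 and 406 CPM in DMSO, against 427, 426, 484 and 484 CPM after 3 h. For npm1a (nucleophosmin, a nucleolar chaperone; chromosome 10, 22034477 to 22045119) they had 22.6, 24.6, 36.5 and 32.3 CPM in DMSO, against 31.9, 27.24, 41.7 and 39.3 CPM after 3 h. Replicates 3 and 4 were the higher pair of npm1a in both groups, which overlapped. For gnl3 (nucleostemin, a nucleolar GTPase; chromosome 11, 3959495 to 3971035) they had 34.5, 39.5, 47.2 and 42.4 CPM in DMSO, against 43.3, 47.3, 55.1 and 53.4 CPM after 3 h, with a log2 fold change of 0.28 (SE 0.16).

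Among the 17 members of the small-subunit processome, 16 fold changes were above 0 in WT at 3 h, 4 had an unadjusted p under 0.05, and the median was 0.27. The highest, utp6, named after its values were seen, had 9.33, 9.52, 11.7 and 12.8 CPM in DMSO, against 11.7, 17.0, 17.9 and 17.7 CPM after 3 h. Its log2 fold change was 0.57 (SE 0.24, edgeR p 0.0278, adjusted p 1). The lowest unadjusted p of the role was that of utp3 (chromosome 11, 26370381 to 26375575), also named after its values were seen, at 0.36 (SE 0.12, edgeR p 0.00521, adjusted p 1). For wdr43 (a precursor-binding subunit) levels were 61.3, 60.4, 67.3 and 64.6 CPM in DMSO, against 65.5, 66.1, 78.8 and 72.8 CPM after 3 h. DMSO replicate 3 of wdr43 was above replicates 1 and 2 at 3 h, so the groups overlapped. Fold changes of utp15 (needed for precursor transcription and processing), bysl and heatr1 were 0.33, 0.23 and 0.24, with SE of 0.19, 0.13 and 0.21. The 3 members that act late on the small subunit had fold changes of 0.11 to 0.14, the lowest median of the 7 roles. Among them, nob1 (the endonuclease that makes the final cut of small-subunit RNA; chromosome 18, 5861755 to 5875433) had 24.4, 25.1, 19.1 and 18.0 CPM in DMSO, against 25.3, 26.6, 21.0 and 20.2 CPM after 3 h. In both groups of nob1 the pair of replicates 1 and 2 was the higher one, opposite to the module level.

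The 11 factors of large-subunit assembly all had fold changes above 0 in WT at 3 h, 4 of them with an unadjusted p under 0.05, and a median of 0.27. For nop2 (a methyltransferase of large-subunit RNA; chromosome 16, 17234540 to 17251898) libraries had 20.5, 22.8, 26.2 and 24.1 CPM in DMSO, 30.1, 31.0, 33.2 and 33.9 CPM after 3 h, then 21.5, 20.5, 28.7 and 23.1 CPM after 24 h. All 3 h libraries of nop2 were above all others of WT, and its fold change from DMSO was 0.45 (SE 0.15, edgeR p 0.00541, adjusted p 1). For urb2 the values were 10.9, 13.05, 13.7 and 13.7 CPM in DMSO, 15.5, 15.1, 19.97 and 17.2 CPM after 3 h, then 12.2, 11.998, 13.3 and 13.5 CPM after 24 h, again without overlap of the 3 h libraries. Its fold change at 3 h was 0.40 (SE 0.13, edgeR p 0.00693, adjusted p 1). The 3 subunits of the complex of Pes1, Bop1 and Wdr12, which processes large-subunit RNA, had fold changes of 0.08 for pes, 0.26 for bop1 and 0.27 for wdr12, with SE of 0.14, 0.15 and 0.19.

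**Figure D3:**
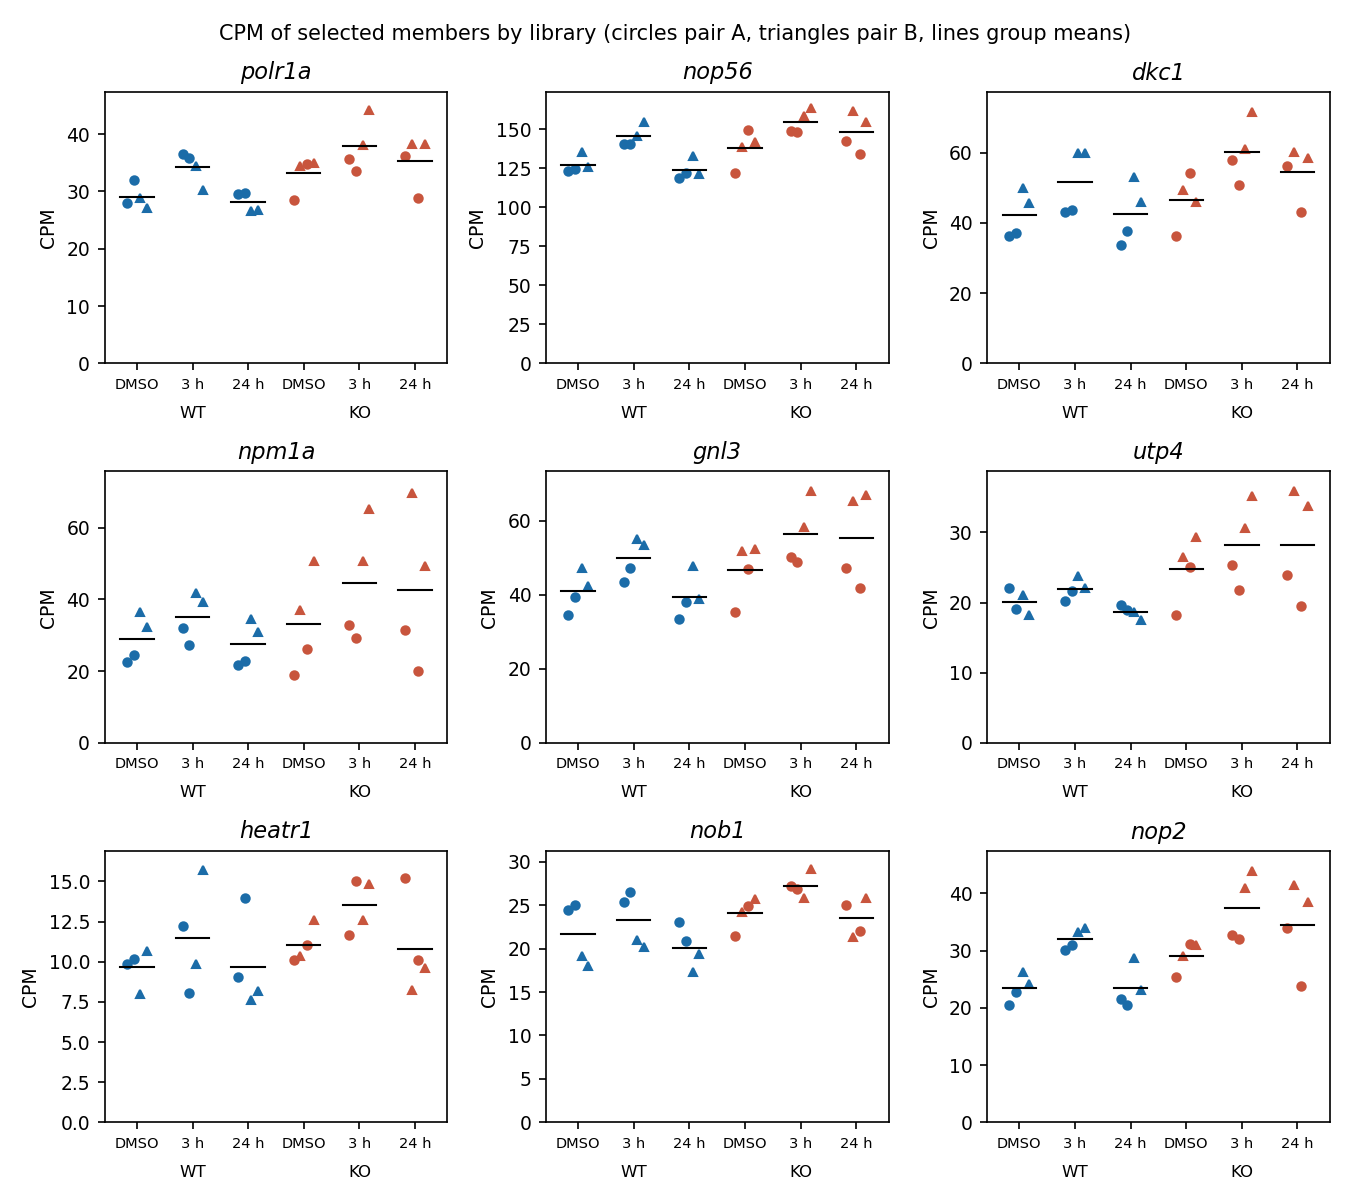
CPM of 9 members in each library (points) with the group mean as a line (n = 4), by group; circles and triangles mark the data-derived pairs, and each panel has its own axis. nop2 is at 30.1 to 33.9 CPM in WT at 3 h against 20.5 to 26.2 CPM in WT DMSO, and npm1a spreads from 20.1 to 69.5 CPM in KO at 24 h.

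After 24 h of ML233, the mean module level of WT was 4.23, against 4.24 in DMSO. Both ML233 groups of a genotype are set against the same DMSO libraries, so these comparisons share them. Of 45 fold changes 23 were above 0 (49.6% of all genes), the median was 0.00, and members ranged from -0.30 to 0.33. The edgeR test called 0 members (0% of all genes), as did DESeq2, and 0 had an unadjusted p under 0.05, against 0.929% of all genes in either direction. Set against 3 h, 1 of 45 fold changes was above 0 (48.8% of all genes), with a median log2 fold change of -0.26. Again 0 members were called (0% of all genes) by edgeR and by DESeq2, while 14 had an unadjusted p under 0.05, all lower, against 0.877% of all genes. That number was 8 without WT 3 h replicate 3 and 8 without WT 24 h replicate 2, and 10 to 17 without any other library. The smallest p-values were those of urb2 at -0.41 (SE 0.13, edgeR p 0.00569), nop2 at -0.45 (SE 0.15, p 0.00583) and nop56 at -0.23 (SE 0.08, p 0.00635), each with an adjusted p of 1. From 3 h to 24 h the libraries of 9 members did not overlap, all lower, against 0.951% of all genes. The edgeR fit with the pair as a block called 0 members here (0.0037% of all genes). In it, 30 members had an unadjusted p under 0.05, all lower, against 3.04% of all genes.

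In KO embryos, all 45 fold changes from DMSO to 3 h were above 0 (50.6% of all genes), with a median of 0.19, against 0.00 over all genes. The median was 0.12 without KO DMSO replicate 1. No member was called by edgeR (0% of all genes) or DESeq2. At an unadjusted p under 0.05 there were 6 members, all higher, against 0.829% of all genes, and the libraries of 6 members did not overlap, against 0.837%. The 6 rested on single libraries: there were 0 without KO DMSO replicate 1, 0 without KO 3 h replicate 4, 1 without KO 3 h replicate 3 and 11 without KO 3 h replicate 2. For nop2, KO libraries had 25.3, 29.05, 31.1 and 31.0 CPM in DMSO, against 32.7, 32.1, 41.0 and 44.0 CPM after 3 h, without overlap, and a fold change of 0.36 (SE 0.15, edgeR p 0.0215, adjusted p 1). For dkc1 they had 36.3, 49.4, 54.3 and 45.9 CPM in DMSO, against 57.8, 50.8, 60.9 and 71.6 CPM after 3 h, which overlapped, with a fold change of 0.37 (SE 0.17, edgeR p 0.0350, adjusted p 1). The other members at an unadjusted p under 0.05 were urb2 (0.33), noc4l (a processome-associated factor named after its values were seen, 0.33), fbl (0.28) and nop56 (0.16).

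At 24 h in KO, 39 of 45 fold changes from DMSO were above 0 (48.4% of all genes), with a median of 0.17. The median was 0.06 without KO 24 h replicate 2, 0.09 without KO DMSO replicate 1 and 0.28 without KO 24 h replicate 3. Same-numbered libraries of these groups deviated together, and they also fall in the same data-derived pair. By number, the module level at 24 h differed from that in DMSO by 0.32, 0.33, -0.28 and 0.15 in replicates 1 to 4. Replicate 3 thus went the other way, and 0 members were higher in 4 of 4, against 6.95% of all genes. The edgeR test called 0 members (0% of all genes), DESeq2 called 0, and 1 member had an unadjusted p under 0.05, against 1.48% of all genes in that direction. This was bysl, with 59.0, 81.2, 81.3 and 82.9 CPM in KO DMSO and 74.8, 122, 78.3 and 94.6 CPM at 24 h. The groups of bysl overlapped. The count of 1 became 15 without KO 24 h replicate 3, and 0 to 3 without any other library. KO at 24 h against KO at 3 h had 13 fold changes above 0 (48.9% of all genes), a median of -0.06 (0.03 without KO 3 h replicate 4 and 0.05 without KO 24 h replicate 3), 0 members called by edgeR (0% of all genes) or DESeq2 and 0 at an unadjusted p under 0.05, against 2.43% of all genes in either direction, with 0 to 2 when single libraries were left out.

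Whether KO embryos responded to ML233 differently from WT embryos was tested as an interaction. At 3 h the KO response minus the WT response had a median of -0.03 over members, with 0 called by edgeR (0% of all genes) and 0 at an unadjusted p under 0.05, against 0.929% of all genes. At 24 h the median was 0.14, 41 of 45 values were above 0 (48.1% of all genes), 0 were called (0% of all genes) and 0 had an unadjusted p under 0.05, against 1.14%, although 5 did without KO 24 h replicate 3 and 0 or 1 without any other library. The median of 0.14 was 0.07 without KO DMSO replicate 1 or without KO 24 h replicate 2, 0.26 without KO 24 h replicate 3 and 0.24 without WT 24 h replicate 3. DESeq2 called 0 members in both. The edgeR fit with the library pair as a block also called 0 members in both (0% of all genes). In that fit 4 members had an unadjusted p under 0.05 at 24 h, all above 0, against 1.68% of all genes in that direction. At 3 h there was 1, below 0, against 1.66%. At an adjusted p under 0.05, a difference between the genotypes in response was thus not detectable in these libraries.

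**Figure D4:**
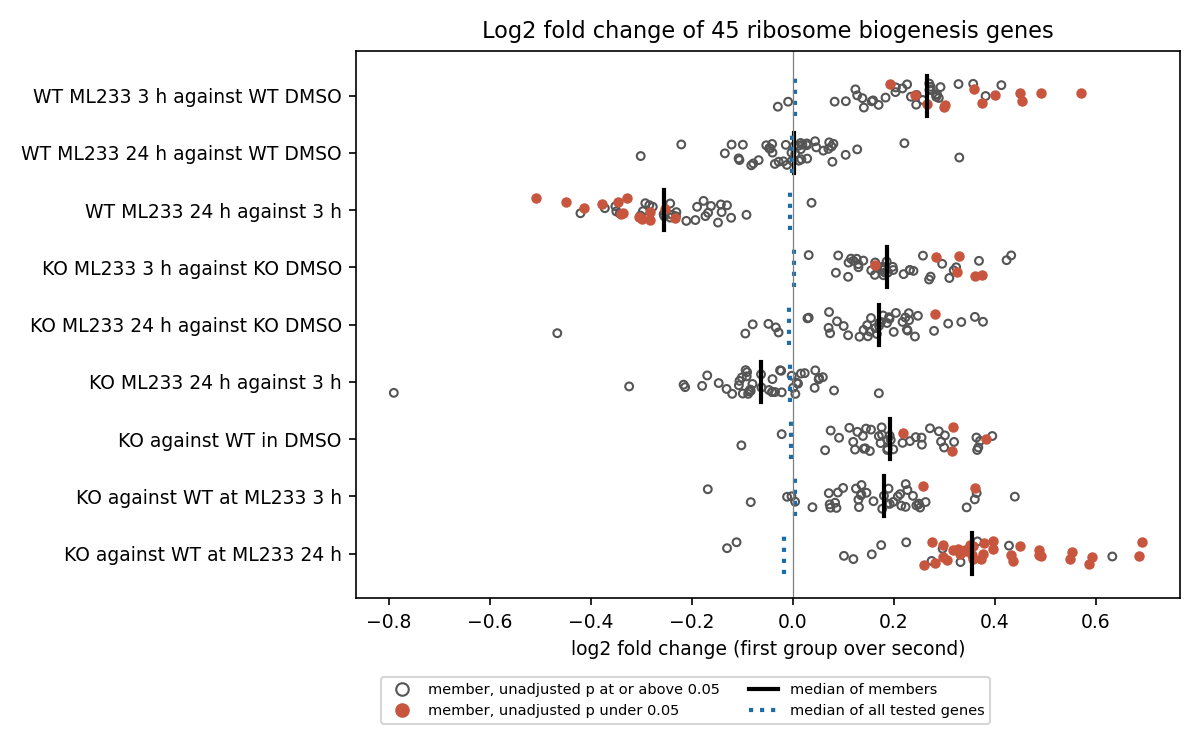
Log2 fold change of each member (points) in the comparisons, with the median of the members and the median of all tested genes. Members lie mostly above 0 in both 3 h comparisons with DMSO and in KO against WT, with medians of 0.27, 0.19 and, for KO against WT at 24 h, 0.35.

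KO embryos were compared with WT embryos within each treatment. In DMSO, 43 of 45 fold changes were above 0 (49.5% of all genes), with a median of 0.19, and 0 members were called by edgeR, against 0.148% of all genes, or by DESeq2. At an unadjusted p under 0.05 there were 4 members, all higher, against 6.86% of all genes, a share of members close to that background. The number was 18 without KO DMSO replicate 1, against 9.01% of all genes higher, and thus depended on that library. It was 2 without any other KO DMSO replicate (3.84% to 8.18% of all genes) and 2 without WT DMSO replicate 1 (5.67%). It was 7 without WT DMSO replicate 3 (5.7%), 3 without replicate 4 (5.48%) and 4 without replicate 2 (6.02%). The smallest edgeR p was that of utp3, at 0.38 (SE 0.12, adjusted p 0.188), named after its values were seen. Its libraries had 10.3, 11.0, 12.3 and 9.91 CPM in WT and 11.7, 14.1, 15.3 and 15.7 CPM in KO, so that 3 KO libraries were above all WT libraries. At 3 h, 41 fold changes were above 0 (50.8% of all genes), with a median of 0.18 (0.07 without KO 3 h replicate 4), 0 members were called by edgeR (0.148% of all genes) or DESeq2, and 2 had an unadjusted p under 0.05, utp4 (0.36) and polr1c (0.26), against 6.7% of all genes in that direction. The 2 became 7 without KO 3 h replicate 2 (8.25% of all genes higher) and 3 without KO 3 h replicate 1 (7.98%). They became 0 without KO 3 h replicate 3 (3.88%) or 4 (3.87%) or WT 3 h replicate 1 (6.33%) or 4 (4.98%). Without WT 3 h replicate 2 there was 1 (6.41%).

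After 24 h of ML233 the difference between genotypes was larger in value. The fold change was above 0 for 43 of 45 members (48% of all genes), with a median of 0.35, against -0.02 over all genes, and 0 members were called by edgeR, against 0.459% of all genes. At an unadjusted p under 0.05 there were 32 members, all higher, against 8.97% of all genes, and 5 members did not overlap between the groups, against 3%. DESeq2's Wald test called 6 members, all higher, against 2.11% of all genes. Without KO 24 h replicate 3, edgeR called 15 members, all higher, against 2.33% of all genes, and without any other library it called 0. The 32 were 16 without KO 24 h replicate 2 (5.2% of all genes), 20 without KO 24 h replicate 4 (5.16%) and 21 without WT 24 h replicate 2 (7.45%).

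By role, all 3 box C/D members, 3 of 4 box H/ACA members, 2 of 3 RNA polymerase I subunits, 14 of 17 processome members, 2 of 3 late small-subunit members, 7 of 11 large-subunit factors and 1 of 4 abundant nucleolar proteins made up the 32. The smallest adjusted p was that of nop2, which had 33.9, 41.5, 23.9 and 38.5 CPM in KO against 21.5, 20.5, 28.7 and 23.1 CPM in WT. Of its KO libraries, 3 were above every WT library and replicate 3 was within the WT range, with a fold change of 0.55 (SE 0.15, edgeR adjusted p 0.0852). For polr1c the fold change was 0.45 (edgeR adjusted p 0.0999), and for polr1a it was 0.33 (SE 0.10, adjusted p 0.151), from 36.1, 38.2, 28.8 and 38.2 CPM in KO.

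Some members with the highest fold changes were the most variable. The levels of npm1a were 31.4, 69.5, 20.1 and 49.4 CPM in KO at 24 h, against 21.7, 22.8, 34.4 and 30.9 CPM in WT, and the fold change was 0.63 (SE 0.33, edgeR adjusted p 0.39). Replicates 2 and 4 of KO were above every WT library, whereas replicate 3 was below all of them. The levels of gnl3 were 47.3, 65.3, 41.8 and 66.9 CPM in KO against 33.3, 37.9, 47.7 and 38.8 CPM in WT, with a fold change of 0.49 (SE 0.16, adjusted p 0.168). Chosen after their values were seen, rrp9 (which binds a small nucleolar RNA of the processome) had a fold change of 0.69, rrs1 (a large-subunit factor; chromosome 24, 23837519 to 23839647) 0.69, and utp4 (a processome subunit; chromosome 18, 14619544 to 14633308) 0.59, with edgeR adjusted p of 0.2, 0.136 and 0.115. For rrs1, KO had 18.4, 32.9, 15.4 and 23.5 CPM and WT 12.2, 13.2, 16.9 and 13.7 CPM. The lowest fold changes were those of utp18 (-0.13) and noc2l (-0.11), with SE of 0.33 and 0.41, and heatr1 was at 0.16 (SE 0.21).

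Among the other members followed in every library, nop56 had 142, 162, 134 and 155 CPM in KO at 24 h against 119, 122, 133 and 122 CPM in WT, and urb2 had 16.2, 16.4, 13.98 and 19.7 CPM against 12.2, 11.998, 13.3 and 13.5 CPM. For both, all KO libraries were above all WT libraries. The groups overlapped in fbl (72.6 to 110.2 CPM in KO against 60.6 to 87.8 CPM in WT), dkc1 (42.97 to 60.2 against 33.6 to 53.2 CPM), ncl (432 to 514 against 400.4 to 434 CPM), wdr43 (61.98 to 101 against 58.4 to 71.7 CPM), bysl (74.8 to 122 against 65.8 to 81.8 CPM) and polr1b (1.44 to 1.999 against 1.23 to 1.74 CPM).

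In wdr12, bop1, utp15 and heatr1 the KO group at 24 h was spread unevenly, whereas pes and nob1 spanned narrower ranges. The levels of wdr12 were 18.5, 31.2, 16.02 and 26.5 CPM in KO against 14.7, 16.7, 22.02 and 18.0 CPM in WT, and those of bop1 were 29.8, 43.4, 25.5 and 37.4 CPM against 24.2, 28.99, 31.6 and 27.7 CPM. For both, KO replicates 2 and 4 were above every WT library, whereas replicate 3 was inside the WT range. Their partner pes had 22.7, 25.5, 26.5 and 29.1 CPM in KO against 23.8, 17.5, 20.2 and 19.8 CPM in WT, so here KO replicate 3 was among the libraries above every WT library. In utp15, KO had 21.1, 30.1, 16.2 and 25.0 CPM and WT had 14.5, 15.0, 20.9 and 17.8 CPM, with the same KO replicate inside the WT range. The levels of nob1 were 25.0, 21.3, 22.005 and 25.8 CPM in KO and 23.0, 20.9, 17.2 and 19.3 CPM in WT, and those of heatr1 were 15.2, 8.27, 10.1 and 9.62 CPM in KO and 9.02, 13.9, 7.62 and 8.21 CPM in WT. In heatr1, a single library stood high in each genotype, and KO replicate 2, which was the highest of its group in most of the members above, was the lowest.

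A fit with the library pair as a block, which takes the difference between the 2 pairs of a genotype as fixed, gave other counts. It called 37 members at 24 h, all higher in KO, against 21.5% of all genes in either direction and 11.6% higher. The 8 not called were utp18, noc2l, utp6, polr1b, heatr1, bop1, pes and nip7. It called 4 members in DMSO (utp3, polr1c, nop2 and wdr75), against 8.74% of all genes higher, and 4 at 3 h (utp4, nob1, nop58 and rrs1), against 8.69%. In both, these were 8.89% of members, a share close to that of all genes. At an unadjusted p under 0.05 the same fit gave 21 members in DMSO, 46.7% of members, against 14.4% of all genes higher. At 3 h it gave 16, or 35.6% of members, against 14.5%. All of these were higher in KO. The pairs lie within genotypes, so these p-values do not include the spread between pairs, and they can be too small. With the pair as a random effect instead (limma voom, consensus correlation 0.591), 0 members were called in the 3 comparisons, and 0, 0 and 9 had an unadjusted p under 0.05. The 9 were all higher, against 3.9% of all genes. The pair block with single libraries left out called 23 members at 24 h without KO 24 h replicate 2, against 17.7% of all genes in either direction, and 39 without KO 24 h replicate 3, against 23.6%. The other counts lay between these, among them 25 without WT 24 h replicate 4, against 15.8%. For ML233 against DMSO the pair block called 0 members in each of the 4 comparisons, against 0.0037% of all genes in WT at 3 h and 0% in the others, with 29 at an unadjusted p under 0.05 in WT at 3 h, against 4.11% of all genes higher, 22 in KO at 3 h, against 2.88%, and 13 in KO at 24 h, against 5.91%.

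Leukocyte markers differed between KO and WT libraries in the same comparisons. Of 10 leukocyte markers, 9 had a row and 7 were tested. Their summed level was 51.7 to 66.3 CPM in the 12 WT libraries, and 138 to 662, 97.0 to 456 and 115 to 436 CPM in KO DMSO, 3 h and 24 h. All 7 had fold changes above 0 in KO in each treatment, with medians of 1.35, 1.28 and 1.36. Among them mmp9 (a matrix metalloproteinase of neutrophils and inflamed tissue) was called in each treatment, and il1b (a cytokine) in DMSO. The summed level includes 31.1 to 418 CPM of mmp9 in the KO libraries, against 7.97 to 15.3 CPM in WT. The markers mpx, lcp1, spi1b, ptprc and mpeg1.1 were not called in any treatment. The defining markers lyz and coro1a were at or near 0, with at most 11 and 1 counts in a library. Within each KO group, the mean log2 level of the leukocyte markers was higher in the pair with the higher mean module level. Liver markers, of which 8 were tested, had medians of 0.03, -0.12 and 0.11 in KO against WT in DMSO, at 3 h and at 24 h, and 8 intestine markers had -0.17, -0.04 and -0.00, with 0 called. Over the 12 KO libraries the module level correlated with liver markers at 0.70, with intestine markers at 0.66 and with 4 skeletal muscle markers at 0.73, and over the 12 WT libraries at -0.43, -0.23 and 0.43. The part of these markers in the result was not tested.

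The members varied together. Over the 990 pairs of members, the median correlation of log2 CPM across the 24 libraries was 0.77, and 982 correlations were above 0. With group means removed the median was 0.67, and 911 were above 0. These correlations share library scaling and the pairs of libraries, and are descriptions. The members closest to the mean of the others were rrs1, gnl3, wdr43 and wdr75, each with r of 0.97. The least alike were heatr1 (0.23), nob1 (0.32), noc2l (0.33), polr1b (0.40), utp18 (0.46) and pes (0.52). For heatr1 and nob1, r was -0.17 and -0.24 once group means were removed. Of these, polr1b and utp18 had few counts, whereas nob1 had 529 to 1268 counts in a library and overlaps wdr59 on the other strand. As the strand setting of the counting is not given in the sources used here, reads of nob1 and wdr59, gnl3 and pbrm1, urb2 and abcb10, nop56 and mlnl, bop1 and scxa, wdr75 and stat4, imp3 and sec22ba, and rrp9 and grm2b may not be told apart.

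Among all other tested genes, those most like the module level over the 24 libraries were tomm20a (a receptor of mitochondrial protein import, r = 0.97), rpf2 (a large-subunit assembly factor, 0.96), ddx18 (a nucleolar helicase, 0.96), ctps1a (CTP synthase, 0.95) and tmed5 (a cargo receptor of the early secretory pathway, 0.95). A list of 96 other ribosome biogenesis factors, of which 84 were tested, followed the members with r = 0.97 over 24 libraries, 0.93 over the 12 WT and 0.97 over the 12 KO libraries. In WT at 3 h against DMSO, 79 of the 84 were above 0 (51% of all tested genes), with a median of 0.21. At an unadjusted p under 0.05 there were 12, against 1.04% of all genes higher and 0.641% lower. In KO at 3 h 75 were above 0 (50.6% of all genes), with a median of 0.15. In KO against WT at 24 h 76 were above 0 (48% of all genes), with a median of 0.31. Of the 84, 2 were called by edgeR, against 0.459% of all genes in either direction. At an unadjusted p under 0.05, 43 were higher, against 8.97% of all genes. The 78 tested ribosomal protein genes correlated less with the module level (0.68, 0.51 and 0.81) and had medians of 0.16 in WT at 3 h, 0.05 in KO at 3 h and 0.21 in KO against WT at 24 h, with 0 called in each.

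**Figure D5:**
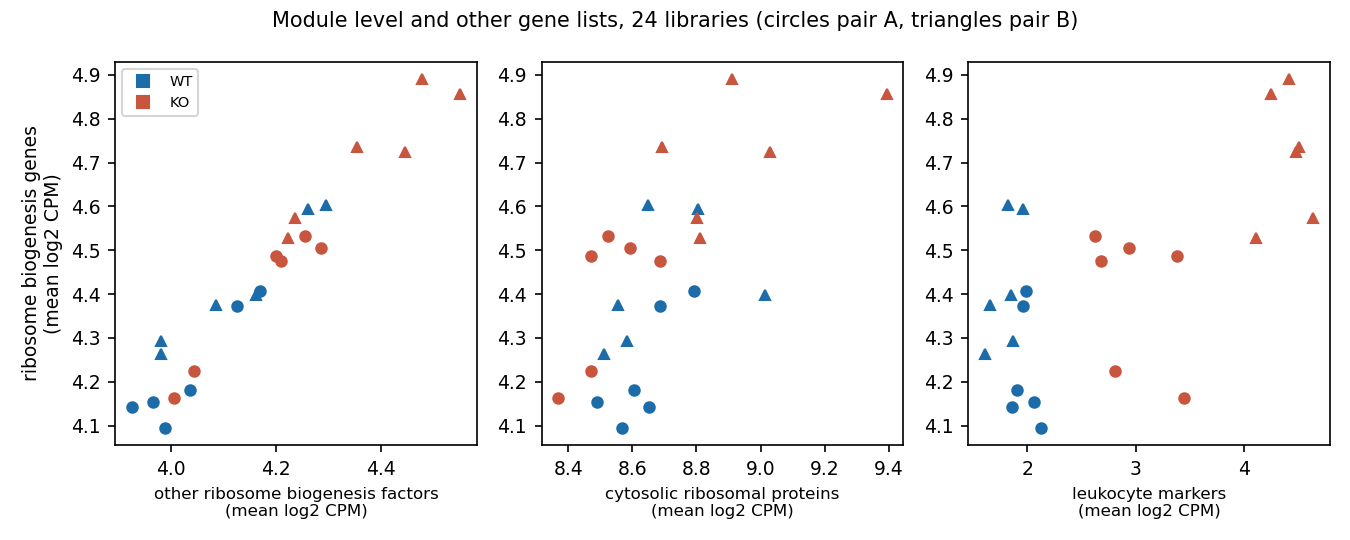
Module level (vertical axes, mean log2 CPM of the 45 members) against the mean log2 CPM of 3 other gene lists (horizontal axes) in the 24 libraries, coloured by genotype, with circles and triangles for the data-derived pairs. Other ribosome biogenesis factors follow the module level over both genotypes (r = 0.97), whereas leukocyte markers separate the genotypes and have r of -0.24 over the 12 WT libraries and 0.65 over the 12 KO libraries.

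Genes of the Myc family and its partners, of which 10 were tested, had median fold changes of -0.04 in WT at 3 h, 0.02 in KO at 3 h and 0.04 in KO against WT at 24 h, with 0 called by edgeR. Their mean log2 level correlated with the module level at 0.57 over 24 libraries, 0.25 over the 12 WT and 0.71 over the 12 KO libraries. The list pools Myc genes with genes of their partners, and Myc activity was not tested. The 16 rows of cell cycle markers had medians of 0.01, -0.00 and -0.04 in the same comparisons, with 0 called, and correlated with the module level at 0.11 over 24 libraries, 0.53 over the 12 WT and 0.07 over the 12 KO libraries. The normalization factor of a library had r of -0.67 and the exocrine pancreas markers -0.63 over 24 libraries, and all these values share the libraries and their scaling.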

How the data were processed

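Whole-embryo poly(A) RNA was measured in 24 libraries. The authors deposited whole-number counts per gene in 1 table, without normalization; the submitters' processing notes name HISAT2 2.0.5, StringTie, featureCounts, DESeq2 1.42.1 and GRCz11, without roles. Groups came from the sample titles. The 47 members, their roles, the other lists and the tests were chosen with earlier results of these data known.

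The tests ran in edgeR 4.0.16 under R 4.3.3: filterByExpr with a minimum count of 10, TMM scaling, 1 term per group over 24 libraries, quasi-likelihood F tests (two-sided) and Benjamini-Hochberg adjustment over 27010 genes, with a call at an adjusted p under 0.05. Log2 CPM used a prior count of 2. Total counts per library, 28.95 to 43.35 M (SI prefix mega), bound the precision of low members such as polr1b. The scripts were tested on simulated counts. These held no difference between pairs, so they do not check the pair block on libraries that fall into pairs.

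Genes named with values per library were set by a rule: 18 examples spread over the roles, up to 3 called members each way and the 5 non-members most like the module level. Any other member named was chosen after its values were seen.

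Replicate numbers were checked by the correlation, across genes, of deviations from group means. Same-numbered libraries correlated at 0.319 to 0.548 among the WT groups and at 0.487 to 0.624 between KO DMSO and KO 24 h. KO 3 h correlated by number with WT at 3 h (0.191 to 0.374), in DMSO (0.216 to 0.281) and at 24 h (0.177 to 0.331). In all these cases same-numbered libraries fall in the same data-derived pair, so numbers and pairs cannot be told apart. Numbers of KO 3 h did not match those of either other KO group (-0.489 to 0.593). Those of WT and KO did not match in DMSO or at 24 h, where the pairs hold differing numbers. Alternatives were RLE and upper-quartile scaling, other filters, DESeq2 1.42.0, only the groups compared, the replicate and library pair blocks and leaving out each library. The random pair effect (limma 3.58.1), the pair block within a genotype, the pair block with libraries left out and nop14 by ID were added after the data were seen. Some items are not reported here.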

Additional observations from a re-analysis of the deposited data

Results flagged for a closer look

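Libraries far from the rest of their group were looked for with Dixon's test at its 95% critical value, applied to the highest and the lowest of the 4 libraries of each group, for each measure with values per library. Of 114 such sets, 7 held a distant library, and chance flags about 1 in 20, or 5.7 here. Of the 7, 4 concern KO DMSO replicate 1. Its module level was 4.16, where the other KO DMSO libraries had 4.50 to 4.57. Its polr1a level was 28.6 CPM (34.5 to 34.995 in the others), its ncl level 407 CPM (475 to 483 in the others) and its bysl level 59.0 CPM (81.2 to 82.9 in the others). The WT DMSO library of replicate 3 had 458 CPM of ncl, where the others had 399 to 406 CPM. The WT library of replicate 3 at 24 h had 71.7 CPM of wdr43, where the others had 58.4 to 60.7 CPM. The KO library of replicate 2 at 3 h had 20.5 CPM of pes, where the others had 26.4 to 26.9 CPM. The measures share libraries, so these values are not independent of each other.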

How the results depend on the processing

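Across all alternatives run, the median fold change of the members and the module level of each group moved by less than the replicate SD; the medians near 0 crossed it with single libraries left out (-0.07 to 0.05 in WT at 24 h against DMSO, -0.15 to 0.05 in KO at 24 h against 3 h, and -0.11 to 0.03 in the interaction at 3 h), and the count of members called stayed at 0 in the treatment comparisons and interactions. In KO against WT at 24 h the count of 0 became 6 with DESeq2 (2.11% of all genes were then called higher), 8 with the replicate block (2.64%), 37 with the library pair block (11.6%) and 0 to 15 with single libraries left out (15 without KO 24 h replicate 3, with 2.33% of all genes), against 0.37% in the fit without these changes. With the library pair block it became 4 in DMSO (8.74%) and 4 at 3 h (8.69%), in both cases 8.89% of members and so close to the share of all genes. At an unadjusted p under 0.05 that block gave 46.7% of members in DMSO, against 14.4% of all genes higher. At 3 h it gave 35.6%, against 14.5%. The replicate block called 0 members in every other comparison than KO against WT at 24 h, where its 8 calls lie. It holds separate terms for the numbers of each genotype, so it does not match WT numbers to KO numbers. Within KO, however, the numbers of the 3 h group share these terms with the other KO groups, whose numbers they did not match. Fold changes near 0 changed sign. For polr1b in WT at 3 h the value was 0.00387 with the replicate block, 0.0398 with a random pair effect, and -0.19 to 0.19 with single libraries left out. For pes in KO against WT in DMSO it was 0.0089 with a random pair effect and -0.121 to 0.0782 with single libraries left out. Other ranges with single libraries left out that crossed 0 were -0.0877 to 0.0153 for imp3 in WT at 3 h, and in KO at 3 h -0.10 to 0.32 for polr1b, -0.0265 to 0.22 for utp15 and -0.13 to 0.21 for utp6. In KO against WT in DMSO they were -0.33 to 0.10 for polr1b and -0.085 to 0.386 for npm1a, and at 24 h -0.056 to 0.382 for heatr1, -0.39 to 0.18 for noc2l and -0.488 to 0.054 for utp18. The cause of these changes was not tested. Low counts limit polr1b and utp18.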
